A study of Mus musculus with 32 samples.

Results

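Mfsd2a, Slamf9, Dgkk and Alcam are the 4 genes described here, out of 15187 named genes on the arrays. They were chosen because their levels differed so much between eosinophil precursors (EoPs) of interleukin-5 transgenic (IL5T) and wild-type (WT) mice. 5 of the 24159 probes shared by both array versions were annotated to them, 2 of these to Dgkk. RNA levels were read on 32 Illumina MouseWG-6 beadchips, each with RNA pooled from mice 7 to 12 weeks old. All mice were on a BALB/c background, and the IL-5 transgene of IL5T mice is driven by the CD2 promoter, which is active in T cells. Cells came from bone marrow (BM), apart from 1 sort from peripheral blood (PB). From IL5T mice there were 5 arrays of common myeloid progenitors (CMPs), 5 of granulocyte-macrophage progenitors (GMPs), 3 of EoPs, 3 of Siglec-F medium BM eosinophils (EoM BM), 4 of Siglec-F high BM eosinophils (EoH BM) and 3 of Siglec-F high PB eosinophils (EoH PB). From WT mice there were 3 arrays each of CMPs, GMPs and EoPs, and no WT eosinophils were among the arrays used here.

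IL-5 binds a receptor made of IL-5Rα and the common beta chain, and signals through JAK2 and STAT5 to drive the growth and survival of eosinophils and their precursors. EoPs are progenitors committed to the eosinophil lineage, and they were told from GMPs by this receptor on their surface. Mfsd2a is a membrane transporter that takes up lysophosphatidylcholine, best known for carrying docosahexaenoic acid into the brain. Slamf9 is a cell-surface receptor of the SLAM family of leukocytes and, unlike most of that family, has a short cytoplasmic tail. Dgkk is a diacylglycerol kinase, an enzyme that turns the second messenger diacylglycerol into phosphatidic acid. Alcam (CD166) is an adhesion molecule that binds itself and CD6 on T cells.

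The 250 bases before the start that the RefSeq promoter table gives for each gene are shown, as start regions of genes chosen for their difference in the same cell type. They come from RefSeq on GRCm38.p6 and run 5′ to 3′ on the strand of the gene, with each CG dinucleotide in capitals. The windows are chr4:122961189-122961438 on the minus strand for Mfsd2a, chr1:172475110-172475359 on the plus strand for Slamf9, chrX:6779056-6779305 on the plus strand for Dgkk and chr16:52453082-52453331 on the minus strand for Alcam. The windows of Dgkk and Alcam lie directly before the annotated gene, that of Mfsd2a overlaps the end of it by a few bases, and that of Slamf9 lies inside its annotated extent (chr1:172458569-172478421).
Mfsd2a: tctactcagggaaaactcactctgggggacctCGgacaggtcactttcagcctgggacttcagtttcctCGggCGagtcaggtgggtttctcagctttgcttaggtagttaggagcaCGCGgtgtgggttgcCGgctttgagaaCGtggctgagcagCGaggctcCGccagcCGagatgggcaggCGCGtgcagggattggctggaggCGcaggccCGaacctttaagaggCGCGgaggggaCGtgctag
Slamf9: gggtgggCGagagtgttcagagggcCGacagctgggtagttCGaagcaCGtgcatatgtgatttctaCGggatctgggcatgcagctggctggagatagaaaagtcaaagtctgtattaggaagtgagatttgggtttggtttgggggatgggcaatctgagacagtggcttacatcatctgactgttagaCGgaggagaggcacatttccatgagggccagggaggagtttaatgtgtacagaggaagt
Dgkk: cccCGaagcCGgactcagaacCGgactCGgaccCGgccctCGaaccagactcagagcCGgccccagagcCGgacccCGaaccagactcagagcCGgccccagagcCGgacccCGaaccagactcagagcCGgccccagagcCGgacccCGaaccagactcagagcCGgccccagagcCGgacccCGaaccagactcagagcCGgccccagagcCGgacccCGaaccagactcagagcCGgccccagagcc
Alcam: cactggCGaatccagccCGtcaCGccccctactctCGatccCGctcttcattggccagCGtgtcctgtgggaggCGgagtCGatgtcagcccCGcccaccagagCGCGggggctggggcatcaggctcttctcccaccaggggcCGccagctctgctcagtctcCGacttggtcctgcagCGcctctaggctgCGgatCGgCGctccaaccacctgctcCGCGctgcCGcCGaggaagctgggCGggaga

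The windows of Alcam and Dgkk held 22 CG dinucleotides each, that of Mfsd2a 17 and that of Slamf9 6, against a median of 6 over 32851 RefSeq promoter windows of the same length. The Dgkk window was a tandem repeat, with 202 of 214 positions equal to the base 36 positions further on. Searched on both strands, none of the 4 windows held the STAT letters TTCNNNGAA, the GATA letters GATAA or the C/EBP letters TTGCNNAA. These letters were found in 7.02%, 22.6% and 9.56% of all windows.

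Levels are normalized log2 intensities, and a probe counts as detected at a detection p under 0.05, which compares its signal with that of negative control beads. The arrays had from 8360 to 10929 detected probes each, and the number of arrays limits the precision. Runs were read here from the prefix that deposited column names share, and are not given as such by the sample titles. All WT arrays, all EoPs and 2 arrays each of IL5T CMPs and GMPs were in 1 run on beadchip version 2.0. The 3 other arrays of IL5T CMPs and of IL5T GMPs were in a run on version 1.1, and the 10 eosinophil arrays were in another, so that a shift of the eosinophil run cannot be told apart from the cell type. Changes come from a limma model of group and beadchip version over all 24159 probes, and a probe was called at a Benjamini-Hochberg adjusted p under 0.05. Epx, the eosinophil peroxidase of the granule, stood at 14.32 to 14.43 on all 6 EoP arrays, whereas Siglecf and Ccr3 were not detected there. Epx was also detected on all 10 eosinophil arrays, at 8.69 to 10.30 in EoH PB and 11.79 to 13.07 in the BM sorts.

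The first comparison asks how EoPs sorted from IL5T mice differ from those sorted from WT mice. Since it is the contrast that chose the genes, its values are a description and no test is given. Mfsd2a and Slamf9 were high in IL5T EoPs and low in WT EoPs, and Dgkk and Alcam were the other way round. Mfsd2a stood at 9.42, 9.12 and 9.64 in IL5T EoPs and at 5.10, 5.36 and 5.69 in WT EoPs. All 3 IL5T arrays lay far above the WT arrays, of which only 1 of 3 was detected, and the difference was 4.01 on the log2 scale (SE 0.21), or 16.1-fold. Slamf9 stood at 9.34, 9.72 and 10.20 in IL5T EoPs against 6.09, 6.20 and 5.87 in WT EoPs. Slamf9 was detected on all 6 of these arrays without overlap, and was higher in IL5T by 3.70 (SE 0.38), or 13.0-fold.

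Dgkk stood at 6.33, 6.19 and 6.62 in IL5T EoPs and at 9.43, 9.75 and 9.71 in WT EoPs. The IL5T arrays were the lower ones but still detected, and the level in WT was 9.50-fold higher (log2 difference -3.25, SE 0.13). Alcam stood at 6.74, 5.79 and 5.78 in IL5T EoPs and at 8.90, 8.72 and 9.07 in WT EoPs. It was detected on all of these arrays without overlap, and was 6.93-fold higher in WT (log2 difference -2.79, SE 0.38). Replicate 1 was the highest of the 3 IL5T arrays for Alcam, and without it the difference was -3.11. With normexp without negative controls and an offset of 50 in place of 16, the differences in EoPs were smaller, at 2.91 for Mfsd2a, 2.88 for Slamf9, -2.57 for Dgkk and -2.06 for Alcam. Fewer cells with a transcript and less transcript per cell cannot be told apart in such bulk RNA.

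**Figure D1:**
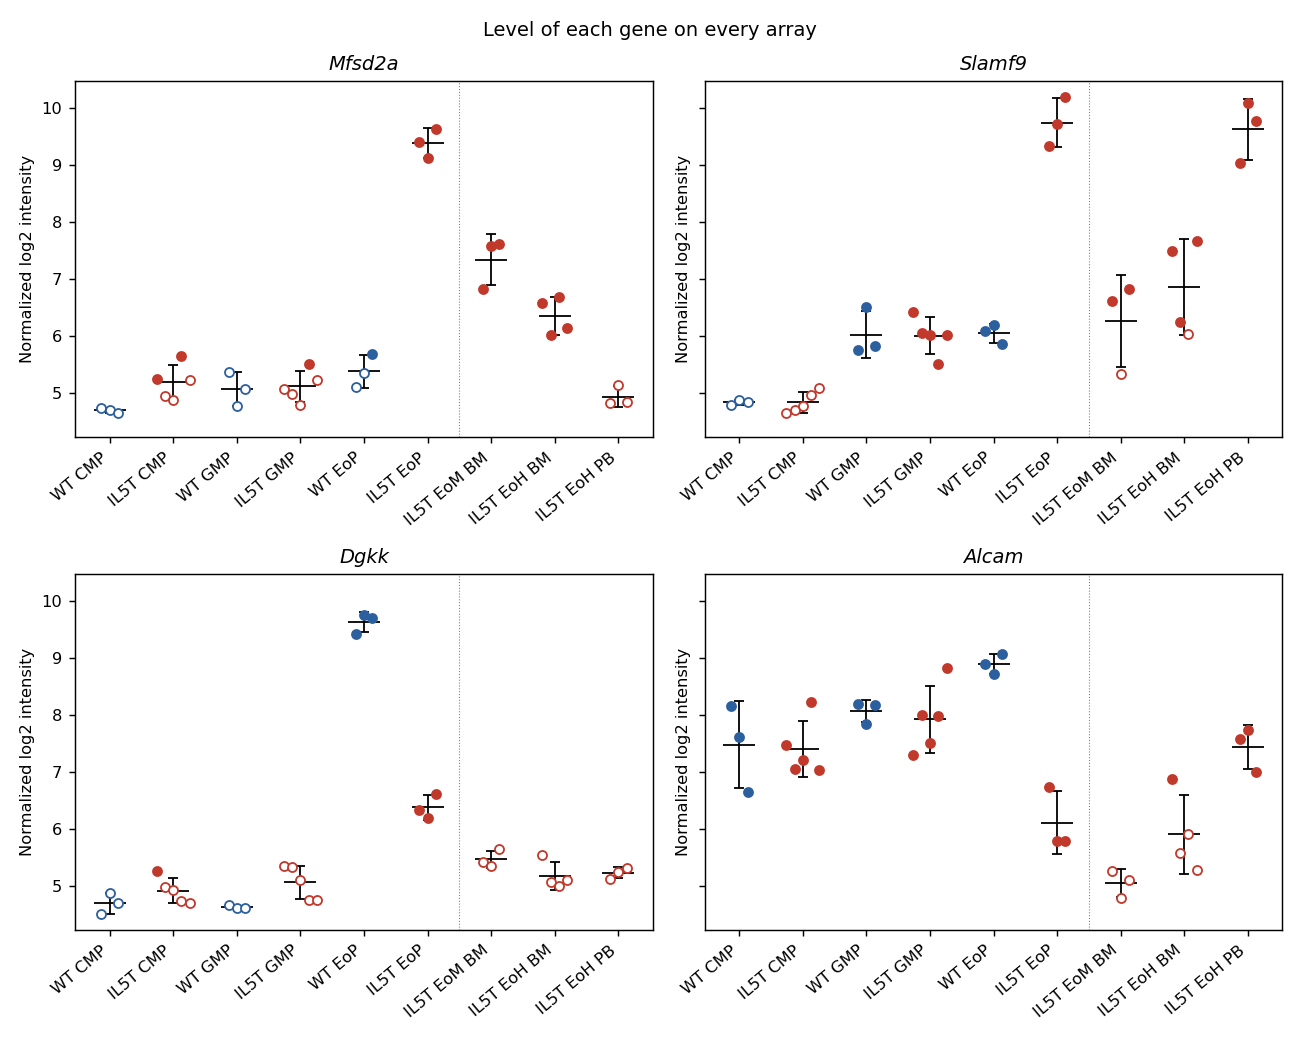
Normalized log2 intensity (y axis) of Mfsd2a, Slamf9, Dgkk and Alcam on each array, by group (x axis). Blue points are WT and red points IL5T arrays, filled where the probe was detected; black bars give the mean and SD of 3 to 5 arrays, the dotted line parts progenitors from eosinophils, and Dgkk is above 6 only in EoPs, at 6.19 to 6.62 in IL5T and 9.43 to 9.75 in WT.

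Among 14692 named genes, left after predicted genes were set aside, Mfsd2a and Slamf9 had ranks 2 and 3 by size of the rise in EoPs. Wipi1, at 4.26, was above them and Bcl2a1b, at 3.04, just below. Dgkk and Alcam had ranks 4 and 7 among the falls, and Inpp4b, at -2.56, followed Alcam. Hba-a1 (-5.12), Hbb-bt (-4.98) and Car1 (-3.28) were above Dgkk, and Aqp1 (-3.23) and Slc4a1 (-2.89) lay between Dgkk and Alcam. Of these, Hba-a1, Car1 and Slc4a1 belong to the list of erythroid markers described below. 4 of the 5 probes, all but the second Dgkk probe, did not overlap between IL5T and WT EoPs, as did 23.9% of all shared probes, and nothing is read from this count since the contrast was used for the choice.

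The erythroid marker list was lower in IL5T EoPs too, with a mean over its 8 measured genes of 5.91 to 6.31 per array against 7.46 to 7.76 in WT. Of these 8 genes, Hba-a1, a globin chain, and Car1, a carbonic anhydrase, fell, and Slc4a1 and Ermap were not detected in IL5T EoPs. In the mast cell and basophil list, whose array means were 8.89 to 9.44 in IL5T and 9.79 to 9.90 in WT, Cpa3 was the 1 of 9 measured genes that was called, and it fell. Prss34 of that list, with means of 8.24 in IL5T and 10.71 in WT, was not called. None of the 6 measured eosinophil genes was called. None of the 11 measured neutrophil granule genes was called, though Elane stood at 12.30 to 12.54 in IL5T and 13.02 to 13.63 in WT EoPs. Kit, whose protein was a marker of the EoP gate, stood at 11.20 to 11.34 in IL5T and 12.20 to 12.43 in WT EoPs. The part of these other cell types, or of a different stage within the gate, in the 4 differences was not tested.

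Dgkk lies on the X chromosome, and the pools differed in sex. Xist, which is expressed from the inactive X of females, stood at 9.91, 5.09 and 9.34 in IL5T EoPs and at 4.96, 6.54 and 11.26 in WT EoPs. Low and high Xist arrays occurred in both genotypes, and the part of sex in the Dgkk difference was not tested. Eif2s3y and Kdm5d, which are on the Y chromosome, were detected on all 22 progenitor arrays and on 0 of the 10 eosinophil arrays. In any comparison of EoPs with eosinophils, sex, run and cell type cannot be told apart.

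The second Dgkk probe did not show the difference. It stood at 5.02, 5.74 and 4.97 in IL5T EoPs and at 4.98, 5.25 and 5.40 in WT EoPs. These ranges overlapped, and the probe was detected on 1 of 32 arrays in all. The brighter probe was detected on 7 of 32, namely all 6 EoP arrays and 1 of the 26 others. Over the 32 arrays, which share groups and runs, the correlation between both probes was 0.44. The Dgkk result therefore rests on 1 probe.

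**Figure D2:**
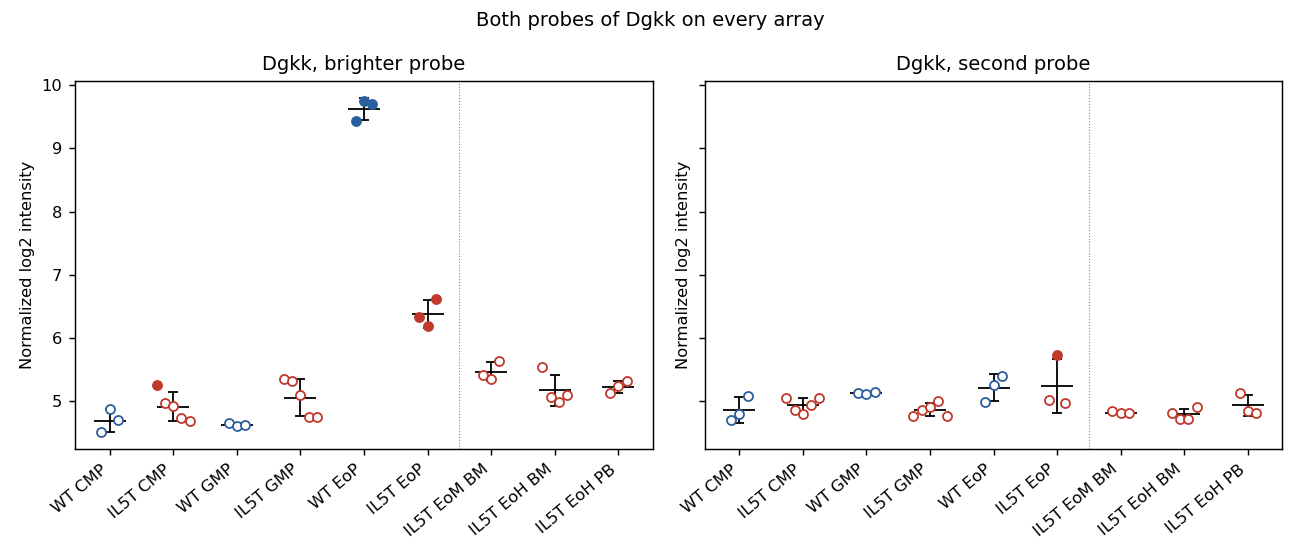
Normalized log2 intensity (y axis) of the brighter and the second Dgkk probe on each of the 32 arrays, by group (x axis). Points are filled where detected, blue for WT and red for IL5T, and bars give the mean and SD; the second probe lies between 4.70 and 5.74 throughout.

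CMPs and GMPs were compared to see whether the genes also differed between genotypes in progenitors sorted outside the EoP gate. None of the 4 genes was called in either. Mfsd2a stood at 5.07, 4.98, 4.79, 5.52 and 5.24 in IL5T GMPs and at 5.38, 4.78 and 5.07 in WT GMPs. These ranges overlapped near the detection limit, with 1 of 5 and 0 of 3 arrays detected, and the modelled difference was 0.29 (95% interval -0.14 to 0.73, limma adjusted p = 1). Slamf9 stood at 6.43, 6.06, 6.03, 5.52 and 6.02 in IL5T GMPs and at 5.76, 6.51 and 5.82 in WT GMPs. It was detected on all of these arrays with overlapping ranges, and a difference of -0.04 (95% interval -0.84 to 0.76, limma adjusted p = 1).

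Dgkk was not detected on any GMP array, at 4.76 to 5.35 in IL5T and 4.61 to 4.66 in WT, so that no fold is given. The modelled difference was 0.18 (95% interval -0.10 to 0.46, limma adjusted p = 1). Both Dgkk probes were without overlap in GMPs, the brighter one higher and the second one lower in IL5T, and these were 2 of 5 probes against 7.28% of all probes. Alcam stood at 7.29, 8.00, 7.51, 7.98 and 8.83 in IL5T GMPs and at 8.20, 7.85 and 8.18 in WT GMPs. The IL5T arrays lay on both sides of the WT ones, and the difference was 0.20 (95% interval -0.60 to 1.00, limma adjusted p = 1). In GMPs 0 of 5 probes were called, against 0.0745% of all probes, and 0 had an unadjusted limma p under 0.05.

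In CMPs, Mfsd2a stood at 5.25, 4.96, 4.87, 5.65 and 5.23 in IL5T and at 4.73, 4.70 and 4.66 in WT. All 5 IL5T arrays were above the WT arrays, but only 2 of them, and no WT array, were detected. The modelled difference was 0.75 (95% interval 0.32 to 1.18) and was not called (limma adjusted p = 0.120). Within the run of the WT arrays, where 2 IL5T arrays could be set against 3 WT arrays, it was 0.74. Mfsd2a was the 1 probe of 5 without overlap in CMPs, against 6.83% of all probes.

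Replicate 4 had the highest Mfsd2a level among the IL5T CMPs, and without it the difference was 0.64. The same array was highest for Epx, which stood at 8.46, 5.71, 7.41, 12.87 and 10.48 over the 5 IL5T CMP arrays. Epx and Prg3, another granule protein, were called higher in IL5T than in WT in CMPs and in GMPs. In GMPs Epx stood at 11.46 to 12.54 in IL5T and at 6.89 to 8.67 in WT. The part of cells with such granule transcripts in the levels of the 4 genes in CMPs and GMPs was not tested. The gate took CMPs as CD16/32 low, whereas EoPs were taken as CD16/32+ and IL-5Rα+.

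The other genes overlapped in CMPs. Slamf9 was not detected on any CMP array, at 4.65 to 5.09 in IL5T and 4.79 to 4.88 in WT. Dgkk was detected on 1 of 5 IL5T and 0 of 3 WT arrays, at 4.69 to 5.25 and 4.51 to 4.88. Alcam stood at 7.48, 7.06, 7.20, 8.22 and 7.03 in IL5T and at 8.17, 7.62 and 6.65 in WT, detected throughout. Its difference in CMPs was 0.27 (95% interval -0.52 to 1.07, limma adjusted p = 1). In CMPs 0 of 5 probes were called, against 0.691% of all probes, and 1, Mfsd2a, had an unadjusted limma p under 0.05. The difference between GMPs and CMPs in the IL5T effect was itself tested, and 0 of 5 probes were called, against 0.0952% of all probes, with 0 under an unadjusted limma p of 0.05.

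**Figure D3:**
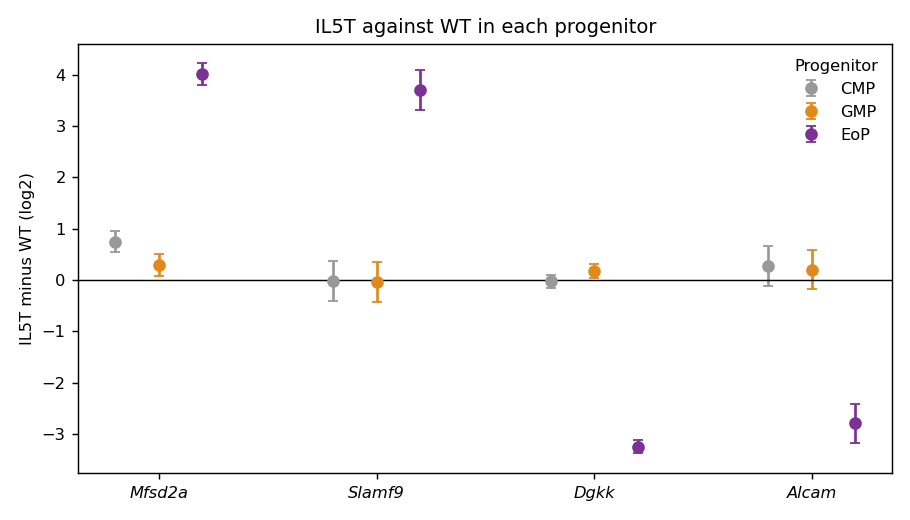
IL5T minus WT on the log2 scale (y axis) for each gene (x axis) in CMPs, GMPs and EoPs, from the limma model with beadchip version as a term; bars are the SE. In EoPs the values run from -3.25 for Dgkk to 4.01 for Mfsd2a, whereas in CMPs and GMPs they run from -0.04 to 0.75.

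From CMPs to GMPs, Slamf9 alone of the 4 genes was called, in IL5T mice. It rose there by 1.18 (95% interval 0.56 to 1.79, limma adjusted p = 0.00815), with all 5 GMP arrays detected and none of the CMP arrays. The level was at least 1.62-fold higher in IL5T GMPs, a bound in which each undetected signal was raised to the dimmest signal still detected on its array. In the run of the WT arrays alone, with 2 arrays a group, the rise was 0.74 and was no longer called (limma adjusted p = 0.181). This was 1 of 5 probes called, against 10.7% of all probes. In WT mice the step was 1.19 (95% interval 0.40 to 1.98) and was not called (limma adjusted p = 0.0513). It was called with 4 of the other settings tried. In the 6 fits that left out 1 array it was never called (limma adjusted p = 0.0653 to 0.234). With all arrays 0 of 5 probes were called over the WT step, against 9.15% of all probes, and 1, Slamf9, had an unadjusted limma p under 0.05. Other lists moved over this step too. 4 of 10 measured monocyte genes rose in either genotype (Csf1r, Cd14, Ly86 and Adgre1), as did Mcpt8, Hdc and Prss34 of the mast cell and basophil list and the neutrophil granule gene Elane. Epx, Prg3 and Lcn2 rose in IL5T mice, Gata2 fell in either genotype, and 4 of 8 measured erythroid genes fell in IL5T and 6 of 8 in WT mice. Their part in the Slamf9 step was not tested.

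From GMPs to EoPs the genotypes went different ways, and these steps share the EoP arrays that chose the genes, so they are given without a test. In WT mice the modelled step was 0.31 for Mfsd2a and 0.02 for Slamf9, with overlapping arrays for both, and 0.82 for Alcam without overlap. In IL5T mice it was 4.02 for Mfsd2a, which was detected on 1 of 5 IL5T GMP arrays, 3.76 for Slamf9 and -2.17 for Alcam, without overlap. Dgkk, undetected in GMPs, was at least 18.6-fold higher in WT EoPs than in WT GMPs and at least 1.97-fold higher in IL5T EoPs than in IL5T GMPs.

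The eosinophil sorts show how the levels in IL5T mice went on after the EoP stage. Mfsd2a stood at 6.83, 7.58 and 7.63 in EoM BM, at 6.58, 6.02, 6.68 and 6.14 in EoH BM and at 4.83, 5.15 and 4.85 in EoH PB. Each sort lay below the one before without overlap, and no PB array was detected. It fell by 0.99 from EoM BM to EoH BM (95% interval -1.39 to -0.59, limma adjusted p = 0.0013). Fitted on the eosinophil arrays alone, this step was not called (limma adjusted p = 0.0586). It fell by 1.42 from EoH BM to EoH PB (95% interval -1.82 to -1.02, limma adjusted p = 1.31e-05) and was at least 1.46-fold higher in EoH BM.

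Slamf9 stood at 6.63, 5.33 and 6.83 in EoM BM, at 7.50, 6.26, 6.04 and 7.67 in EoH BM and at 9.05, 10.09 and 9.77 in EoH PB. Both BM sorts were scattered and overlapped, with a difference of 0.60 (95% interval -0.14 to 1.34, limma adjusted p = 0.418). All PB arrays were above them, and the rise from EoH BM was 2.77 (95% interval 2.03 to 3.51, limma adjusted p = 5.85e-06), or 6.82-fold. The range in EoH PB overlapped that of IL5T EoPs, on arrays of another run and version.

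Alcam stood at 5.27, 4.79 and 5.10 in EoM BM, at 6.87, 5.58, 5.90 and 5.28 in EoH BM and at 7.57, 7.74 and 7.00 in EoH PB. It was detected on 0 of 3, 1 of 4 and 3 of 3 of these arrays, replicate 1 being the detected and highest EoH BM array. The fitted step from EoM BM to EoH BM was 0.86 (95% interval 0.12 to 1.59), or at least 1.03-fold, and was not called (limma adjusted p = 0.168). Alcam rose by 1.53 from EoH BM to EoH PB (95% interval 0.80 to 2.27, limma adjusted p = 0.00752), without overlap. This call was lost when arrays were scaled to a common median (1.09, limma adjusted p = 0.176). It was also lost in a fit of the eosinophil arrays alone (limma adjusted p = 0.0658) and without EoH PB replicate 2 (1.38, limma adjusted p = 0.0544).

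Dgkk was detected on none of the 10 eosinophil arrays, at 5.35 to 5.64 in EoM BM, 4.99 to 5.54 in EoH BM and 5.13 to 5.32 in EoH PB. In the BM step 1 of 5 probes was called, lower in EoH BM, against 8.44% of all probes called and 4.75% called lower. In the step to PB 3 of 5 were called, 2 higher and 1 lower, against 5.83% of all probes, 3.19% higher and 2.64% lower. Both steps share the EoH BM arrays. The mean over 10 measured monocyte, macrophage and dendritic genes was 6.31 to 6.91 per array in EoM BM, 7.02 to 8.04 in EoH BM and 8.41 to 9.21 in EoH PB. From EoM BM to EoH BM 5 of these 10 genes rose, as did the eosinophil gene Ccr3, while Hdc, Gata2 and Cd3g fell. The part of such cells in the Mfsd2a fall over that step was not tested. From EoH BM to EoH PB 6 of the 10 genes rose and Siglech fell. The mean over 7 measured T cell genes was 5.27 to 5.63 in EoH BM and 6.63 to 6.99 in EoH PB, with Cd3e, Cd2 and Thy1 rising, while Cd4, Cd8a and Cd5 were not detected. Of 3 measured B cell genes Cd79a and Cd79b rose and Vpreb3 fell, with array means of 8.30 to 10.61 in EoH BM and 8.83 to 9.21 in EoH PB. Over the same step 5 of 11 measured neutrophil granule genes fell, with array means of 10.36 to 11.66 in EoH BM and 8.14 to 9.54 in EoH PB. Of the erythroid genes 4 of 8 fell, with array means of 7.33 to 9.53 and 5.55 to 6.51, and Epx, Prg3 and Ccr3 of 6 measured eosinophil genes fell. These lists moved with Slamf9, Alcam and Mfsd2a, and their part in those changes was not tested.

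Set in order of the level after the version effect was taken out, Mfsd2a was highest in IL5T EoPs, followed by EoM BM and EoH BM, each apart from the next. The next 5 groups, from IL5T CMPs to WT GMPs, overlapped with their neighbours, and WT CMPs were lowest. Slamf9 was highest in IL5T EoPs and EoH PB, which overlapped. EoH BM, EoM BM, WT EoPs and both GMP groups followed, each overlapping the next, and both CMP groups were lowest. Dgkk was highest in WT EoPs, followed by IL5T EoPs, each apart from the next, and the 7 other groups were near the detection limit. Alcam was highest in WT EoPs and lowest in EoM BM, and every group in its order overlapped the next. The version effect rests on IL5T CMPs and GMPs, the only groups on both versions, where run changes with version. Mfsd2a and Dgkk were mostly undetected in those groups. For Alcam, IL5T EoPs and EoH BM had means of 6.11 and 5.91 before, and 5.81 and 6.20 after, the version effect was taken out.

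The genes whose pattern over the 32 arrays was most like each of the 4 were sought among 11317 probes by Pearson correlation, as a description, since arrays of 1 group share their cells and run. For Mfsd2a these were Kdelr3 (r = 0.92), Cyb561 (r = 0.87) and Cyp11a1 (r = 0.86). For Slamf9 they were Prr15 and Emc9 (both r = 0.84) and Cipc (r = 0.83). For Dgkk they were Tktl1 and Trnp1 (both r = 0.94) and Cdh1 (r = 0.93). The Dgkk probe used was detected on 7 of 32 arrays, and on 1 of the 26 outside EoPs. Its r values therefore rest mainly on the EoP arrays that chose the gene. For Alcam the genes most alike were Fam102b and Serpinb1a (both r = 0.81) and Galnt11 (r = 0.79). By rank correlation 1 of the 3 was again among the first 3 for Mfsd2a, 2 for Alcam and none for Slamf9 and Dgkk. Among the 4 genes themselves, r was 0.55 between Mfsd2a and Slamf9, -0.73 between Mfsd2a and Alcam, and 0.26 between Dgkk and Alcam. It was 0.14 between Mfsd2a and Dgkk, 0.14 between Slamf9 and Dgkk, and -0.26 between Slamf9 and Alcam. All these r values include the EoP arrays that chose the genes.

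The relatives and partners of the 4 genes were also compared between IL5T and WT EoPs. Over all probes 7.3% were called in this contrast, 3.75% higher and 3.55% lower, and the median change was 0.01. The lists are short, and nothing is read from their counts against this share. Detected on at least 1 array were 5 of 5 measured kinases, 6 of 8 SLAM genes and adaptors, 12 of 17 uptake genes and 10 of 12 adhesion genes. Of the diacylglycerol kinases besides Dgkk 0 of 5 measured were called, with a median of -0.09 and a range from -0.39 to 0.32. Dgka and Dgkz, detected on all 32 arrays, had a mean of 8.80 and 9.54 in IL5T EoPs and 9.19 and 9.91 in WT EoPs. Of 8 measured SLAM family genes and adaptors besides Slamf9 1 fell and 0 rose, with a median of -0.12. This was Cd84, a receptor that binds itself between leukocytes, with means of 9.42 in IL5T and 10.16 in WT (log2 difference -0.73, SE 0.21, limma adjusted p = 0.0276).

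Of 17 measured genes of lysolipid and fatty acid uptake besides Mfsd2a 1 rose and 0 fell, with a median of 0.14. This was Acsl4, which couples long polyunsaturated fatty acids to coenzyme A, with means of 7.26 in IL5T and 6.28 in WT (log2 difference 0.97, SE 0.16, limma adjusted p = 3.51e-04). Lpcat4, an acyltransferase for lysophospholipids, had means of 6.48 and 5.63 and was not called (limma adjusted p = 0.0829). Of 12 measured ALCAM partners and related adhesion genes 0 were called in EoPs, with a median of 0.13. Cd6, the ligand of Alcam, had means of 4.70 in IL5T and 4.59 in WT EoPs, near the detection limit, so that a difference could not be measured there.

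**Figure D4:**
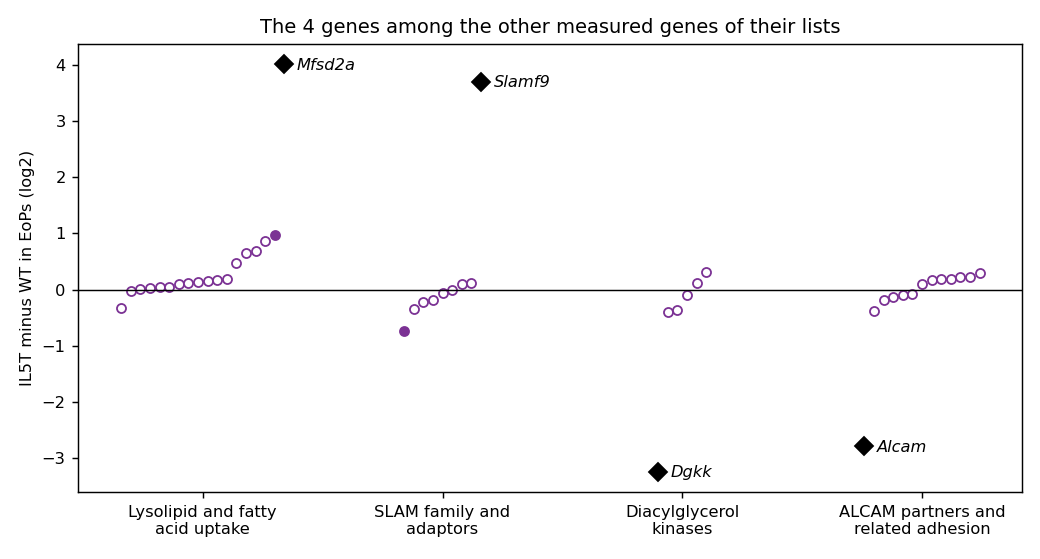
IL5T minus WT in EoPs on the log2 scale (y axis) for the measured genes of 4 lists (x axis), 1 point a gene, ordered by size within a list. Black diamonds are the 4 genes chosen by this contrast, circles the other genes of their lists, filled where called; the circles lie between -0.73 for Cd84 and 0.97 for Acsl4.

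In the other comparisons members of the lists were called as follows. Slamf1, a SLAM receptor of early progenitors and lymphocytes, was lower in IL5T than in WT CMPs, at 6.00 to 7.08 against 7.90 to 8.57 (log2 difference -1.71, SE 0.21, limma adjusted p = 3.33e-05). In the same contrast 4 of 8 measured erythroid genes fell (Car1, Epor, Ermap and Rhag), with array means of 6.54 to 7.33 in IL5T and 8.37 to 9.30 in WT CMPs, and their part in the Slamf1 difference was not tested. Slamf1 was not detected on any GMP array, so that a difference between the genotypes could not be measured there. From CMPs to GMPs Slamf1 was at least 2.20-fold lower in IL5T and at least 6.88-fold lower in WT mice. In IL5T mice Acsl4 rose over that step by 0.60 (limma adjusted p = 0.00147) and Cd6 fell by 0.81 (limma adjusted p = 0.0122). In WT mice Slc27a6, a fatty acid transport protein, was lower in GMPs by at least 1.30-fold (limma adjusted p = 0.021).

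From EoM BM to EoH BM, where Mfsd2a fell, the fatty acid transporter Slc27a4 fell by 1.52 (limma adjusted p = 3.97e-06), from 9.99 to 10.20 down to 8.33 to 8.75. Lpcat4 was lower in EoH BM, by at least 1.41-fold (limma adjusted p = 0.00595). These were 2 of 17 measured genes of their list, and 0 rose, against 8.44% of all probes called and 4.75% called lower. Nothing is read from this count. Over the same step Ly9, a SLAM receptor, fell by 1.32 (limma adjusted p = 1.93e-04), and Msn, which ties membrane proteins to actin, fell by 1.02 (limma adjusted p = 0.0188). From EoH BM to EoH PB, where Alcam rose, Cd6 stood at 5.48 to 6.01 in EoH PB and was not detected in EoH BM. It was higher in EoH PB by at least 1.02-fold (fitted rise 0.99, limma adjusted p = 0.0184). Cd6 is carried by T cells, whose genes Cd3e, Cd2 and Thy1 rose over the same step, and their part in the Cd6 level was not tested. Cd6 also stood at 5.99 to 7.39 in IL5T CMPs and 5.10 to 6.10 in WT CMPs. In GMPs it was at 5.45 to 6.11 in IL5T and 5.86 to 6.62 in WT. Cd3e was not detected on any CMP or GMP array.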

How the data were processed

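The authors deposited, for each array, probe intensity read from the scanner and a detection p-value. The authors' deposited log2 values had been background corrected by normexp and quantile normalized, and differed by at most 0.163 from those made here. Background was corrected with normexp of limma 3.58.1 in R 4.3.3 (negative controls inferred from detection p-values, offset 16) for each MouseWG-6 version, 1.1 and 2.0. The 24159 shared probes were quantile normalized over 32 arrays and fitted with lmFit and eBayes (22 residual degrees of freedom), with p-values adjusted over all shared probes. The probe with the highest mean stood for its gene. Named are the 4 genes, called members of their lists, and genes a result turns on; Dgka, Dgkz, Lpcat4 and Cd6 in EoPs were singled out after their values were seen. The genes and lists were chosen with earlier results of these data known. The model was tested on simulated data. Replicates are independent pools of mice, per the study's legends. 139 probes named differently in the platform tables stayed unnamed. Replicate 2 of the IL5T CMPs has a column name that contains GMP although its labels say CMP, and 1 antibody label of the EoH BM arrays says medium Siglec-F. Plots used matplotlib in Python.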

Additional observations from a re-analysis of the deposited data

How the results depend on the processing

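In EoPs the 4 genes kept their directions under every alternative run, Dgkk by its brighter probe. The second Dgkk probe stood at 0.03 with all arrays and at -0.22 to 0.17 leaving out 1 array. With normexp without negative controls and offset 50, 2 choices changed together, the EoP differences were smaller, at 2.91 for Mfsd2a, 2.88 for Slamf9, -2.57 for Dgkk and -2.06 for Alcam, and with median scaling they were 4.31 for Mfsd2a and -3.46 for Dgkk. Leaving out 1 array gave 3.87 to 4.17 for Mfsd2a, 3.48 to 3.91 for Slamf9, -3.37 to -3.16 for Dgkk and -3.11 to -2.63 for Alcam.

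Probes called moved most where few were called. In GMPs, 18 probes became 33 with median scaling, 46 without the version term, 11 in the run of the WT arrays, 44 with array weights and 5 with the replicate block. In CMPs, 167 became 298, 84 and 10 without the version term, in that run and with the replicate block. For the difference between GMPs and CMPs, 23 became 15 with deposited values, 68 with median scaling, 8 without the version term, 6 in that run, 61 with array weights and 13 with the replicate block. From IL5T CMPs to GMPs 2580 became 1345 in that run. From EoM BM to EoH BM 2040 became 1167 with median scaling and 882 in the eosinophil arrays alone, and from EoH BM to EoH PB 1408 became 767 and 653. The cause was not tested. Numbered replicates did not deviate together in every pair, and the numbers pair nothing by design. The replicate block changed no call among the 4 genes but moved the uncalled differences of Mfsd2a, Slamf9, Dgkk and Alcam to 0.75, -1.27, 0.29 and 1.13 in GMPs and to 1.21, -1.25, 0.0818 and 1.20 in CMPs. IL5T replicates 4 and 5, the ones on version 2.0, have no WT array of their number. A term for array run could not be fitted, as the eosinophil run holds no other group.

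Leaving out 1 array gave 1113 to 1693 probes called in EoPs (1764 with all arrays; 1113 without WT replicate 1 and 1175 without WT replicate 3), 9 to 21 in GMPs (9 without WT replicate 3, 10 without IL5T replicate 4), 114 to 246 in CMPs, 11 to 53 for the difference between GMPs and CMPs (53 without WT CMP replicate 2), and 1238 to 2337 from EoM BM to EoH BM (1238 without EoM BM replicate 3). Dgkk became called over that last step without EoH BM replicate 1 (-0.42, limma adjusted p = 0.0247).

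Apart from the second Dgkk probe in EoPs, which got no test, signs turned only for differences that were not called. In GMPs Slamf9 became 0.0192 with normexp without controls and offset 50 and 0.0303 with array weights, and -0.17 to 0.215 leaving out 1 array. Alcam became -0.0739 with median scaling and -0.15 without the version term, and -0.0951 to 0.36 leaving out 1 array. In CMPs Slamf9 became 0.0011 with normexp without controls and offset 50 and 0.20 in the run of the WT arrays, and -0.17 to 0.0054 leaving out 1 array. Dgkk in CMPs became 0.0536, 0.222, 0.0206, 0.0169 and 0.0818 with normexp without controls and offset 50, without the version term, in that run, with array weights and with the replicate block, and -0.12 to 0.0614 leaving out 1 array. Alcam in CMPs became -0.08 without the version term, and -0.14 to 0.67 leaving out 1 array. The difference between GMPs and CMPs became 0.0181 with normexp without controls and offset 50 and 0.13 with array weights for Slamf9, 0.18 in the run of the WT arrays for Alcam, and -0.15 to 0.22 and -0.42 to 0.34 leaving out 1 array. Dgkk gave -0.16 to 0.0247 from WT CMPs to GMPs and -0.0055 to 0.18 from EoH BM to EoH PB leaving out 1 array.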
